A study of Mus musculus with 6 samples.

Results

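The genes in question encode 8 enzymes that modify the sterol ring, or make the oxysterols whose ring is modified next, during hepatic bile acid synthesis: Cyp7a1, Cyp8b1, Cyp27a1, Cyp7b1, Cyp39a1, Hsd3b7, Akr1d1 and Cyp2c70. They were chosen by symbol from 23284 genes counted in each liver, and 8 of 8 passed the filter on low counts that 12453 genes passed. Liver RNA was sequenced from male mice with floxed FXR alleles that had received 2 adeno-associated virus vectors of serotype 8 at 8 weeks of age. In every animal 1 vector delivered Cre recombinase to delete mouse FXR, and its companion delivered an FXR transgene, as FXR-WT in 3 mice and as Y67F-FXR, with phenylalanine in place of the tyrosine, in 3 mice. Both vectors used the TBG promoter, which restricts expression to hepatocytes, so FXR in other cells was left as it was. Mice were fed chow containing 0.5% cholic acid for the last 6 h before livers were collected at 4 weeks, and a group without hepatic FXR was not analysed here.

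FXR, encoded by Nr1h4, is a nuclear receptor that senses bile acids and lowers their synthesis in the liver, in part through the repressor SHP, encoded by Nr0b2. In the classic route CYP7A1 hydroxylates cholesterol itself and CYP8B1 adds the hydroxyl group that makes cholic acid, while in the alternative route CYP27A1 first oxidises the side chain and CYP7B1, or CYP39A1 for another oxysterol, hydroxylates the ring. HSD3B7 and AKR1D1 then change the ring in both routes. In mice, CYP2C70 further hydroxylates chenodeoxycholic acid to form the muricholic acids, which unlike chenodeoxycholic acid do not activate FXR.

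The libraries held between 19551113 and 22053320 counted reads, and the 10 most abundant genes took between 18.4% and 20.4% of them. Counts were scaled by TMM factors, between 0.938 and 1.05, and are given as CPM, counts scaled to a common library size. Hepatocyte markers summed to between 96999 and 112618 CPM in FXR-WT and to between 93947 and 116456 CPM in Y67F-FXR livers, with 0 of 6 called by edgeR, 1 at an unadjusted p under 0.05 (13.4% of all tested genes were), and 0 called by DESeq2. Nr1h4 had between 152 and 209 CPM in FXR-WT and between 169 and 186 CPM in Y67F-FXR livers, and the counts do not separate the mouse gene from any transgene reads that align to it. The sum of 6 stellate cell markers was lower in every Y67F-FXR liver, at between 52.4 and 64.4 CPM against between 67.6 and 92.7 CPM. The markers differed, with 3 overlapping and 3 lower in every Y67F-FXR liver, as 10.5% of all tested genes were. Of these 6, 0 were called by edgeR, 3 had an unadjusted p under 0.05, and 1, Lrat, was called lower by DESeq2, which called 1.66% of the genes it tested higher and 1.59% lower. The part of these cells in the results was not tested, and in whole liver fewer cells of a type and less RNA per cell cannot be told apart. The median deviation of the shortest 20% of genes from their group mean was 0.19 for FXR-WT replicate 1 and 0.22 for Y67F-FXR replicate 2 in log2 units, and between -0.20 and -0.01 in the other livers. Samples of a group all differed by more than counting noise.

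The ring-modifying enzymes did not move as a block in Y67F-FXR livers. Cyp7a1 and Cyp8b1, the classic route's own steps, rose, Cyp2c70 fell, and the remaining 5 genes did not pass the test. Calls needed a fitted change of over 1.5-fold with an adjusted p below 0.05. By this rule 2 of the 8 enzymes were called higher, where 0.546% of all tested genes were, and 1 was called lower, where 0.426% were. With any 1 liver left out, 0 to 1 of the enzymes were called higher, beside 2 to 35 of all genes, and the 1 called lower was Cyp2c70 each time. All Y67F-FXR livers lay above all FXR-WT livers for 4 of the 8, against 10.2% of all genes tested, and below them for 1 of the 8, against 10.5%. The median size of the change, without its sign, was 0.71 on the log2 scale among the 8 enzymes and 0.19 among all tested genes. None of the 8 shared exon bases with another gene of the annotation.

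**Figure D1:**
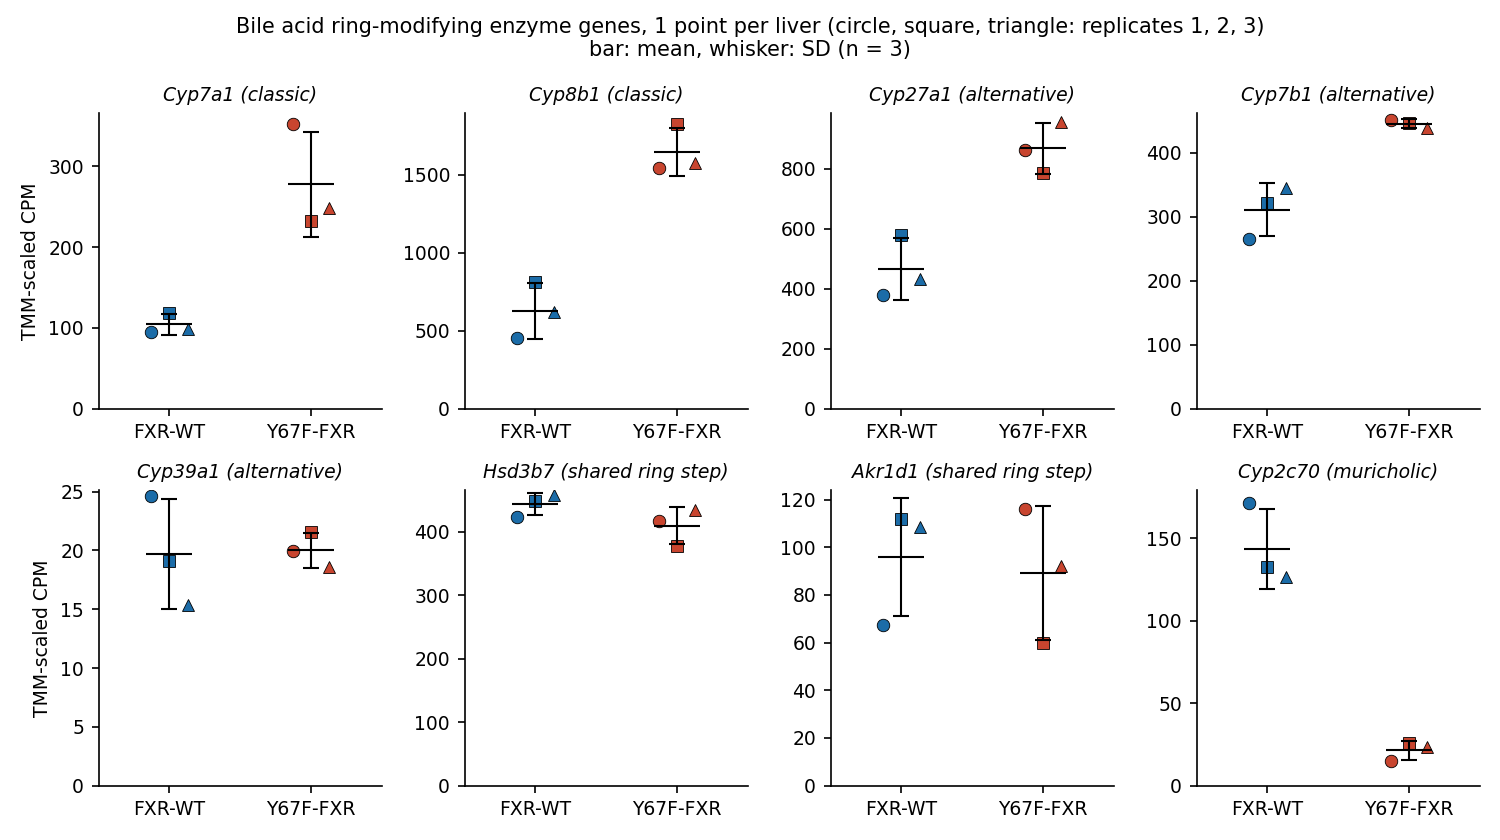
Scaled expression (CPM, linear axis from 0) of each enzyme gene in the 3 FXR-WT and 3 Y67F-FXR livers, with the mean (bar) and SD (whisker). The groups stand apart for Cyp7a1, Cyp8b1, Cyp27a1, Cyp7b1 and Cyp2c70, and mix for Cyp39a1, Hsd3b7 and Akr1d1.

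Cyp7a1 encodes cholesterol 7α-hydroxylase, the rate-limiting enzyme of the classic route, and spans 6 exons on the minus strand of chromosome 4 (mm9, 6192759 to 6202778). Its expression was 94.8, 119 and 99.0 CPM in FXR-WT replicates 1 to 3 and 353, 232 and 249 CPM in Y67F-FXR replicates 1 to 3. The Y67F-FXR livers were all above the FXR-WT livers, and replicate 1 stood well above the others of its group. The means were 104 ± 12.9 and 278 ± 65.2 CPM (SD, n = 3), a 2.67-fold rise with a 95% interval of 1.98 to 3.60. On the log2 scale the change was 1.41 (standard error 0.187; Benjamini-Hochberg adjusted p = 0.0210, edgeR quasi-likelihood). The call was lost on leaving out any FXR-WT liver or Y67F-FXR replicate 3, with adjusted p values of the same edgeR quasi-likelihood test of 0.0557, 0.0591, 0.102 and 0.0712, although the log2 change stayed between 1.21 and 1.52.

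Cyp8b1 encodes sterol 12α-hydroxylase, which sets the proportion of cholic acid, and is a gene of 1 exon on the minus strand of chromosome 9 (mm9, 121823474 to 121825423). It had 452, 810 and 619 CPM in the FXR-WT livers and 1544, 1826 and 1576 CPM in the Y67F-FXR livers. The FXR-WT livers were uneven, with replicate 1 lowest, but even the highest of them lay well under the lowest Y67F-FXR liver. The means of 627 ± 179 and 1649 ± 154 CPM (SD, n = 3) gave a log2 fold change of 1.39 (standard error 0.213; Benjamini-Hochberg adjusted p = 0.0333, edgeR quasi-likelihood). This was 2.63-fold, with a 95% interval of 1.87 to 3.70. The call was kept without FXR-WT replicate 1 or 2 and lost without FXR-WT replicate 3 or any Y67F-FXR liver, with adjusted p values in the same edgeR test of 0.123, 0.0783, 0.0736 and 0.127.

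In the alternative route the values of Cyp27a1 and Cyp7b1, which make and use 27-hydroxylated sterols, were higher without a call, and those of Cyp39a1 overlapped. Cyp27a1, the mitochondrial sterol 27-hydroxylase (chromosome 1, mm9, 74760148 to 74784464, plus strand, 9 exons), had 380, 581 and 433 CPM in FXR-WT and 864, 786 and 955 CPM in Y67F-FXR livers. No Y67F-FXR liver came near the FXR-WT range. The means were 465 ± 104 and 868 ± 84.9 CPM (SD, n = 3), and the log2 fold change was 0.90 (standard error 0.178, 95% interval 0.49 to 1.31). It was left uncalled by its Benjamini-Hochberg adjusted p of 0.0721 (edgeR quasi-likelihood). It was called with DESeq2, at an adjusted p of 0.000365, and with the edgeR likelihood ratio test, at 0.00127.

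Cyp7b1, the oxysterol 7α-hydroxylase (chromosome 3, mm9, 17971950 to 18143338, minus strand, 6 exons), had 265, 322 and 346 CPM in FXR-WT and 452, 446 and 438 CPM in Y67F-FXR livers. The Y67F-FXR livers were nearly alike and all above the FXR-WT livers. The log2 fold change was 0.52 (standard error 0.133, 95% interval 0.21 to 0.83, Benjamini-Hochberg adjusted p = 0.136, edgeR quasi-likelihood). The adjusted p was 0.0197 with DESeq2, where the change of 0.53 fell short of the 1.5-fold minimum, and 0.0612 with the edgeR likelihood ratio test. Cyp39a1, which hydroxylates 24-hydroxycholesterol (chromosome 17, mm9, 43804374 to 43888380, plus strand, 12 exons), had 24.6, 19.1 and 15.4 CPM in FXR-WT and 19.9, 21.5 and 18.6 CPM in Y67F-FXR livers. All Y67F-FXR values fell inside the FXR-WT range. Its log2 fold change of 0.022 had a 95% interval of -0.40 to 0.44 (Benjamini-Hochberg adjusted p = 0.984, edgeR quasi-likelihood), and its sign changed when library totals replaced the TMM factors.

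The enzymes shared by both routes gave no call. Hsd3b7, the 3β-hydroxysteroid dehydrogenase of bile acid synthesis (chromosome 7, mm9, 134944123 to 134947316, plus strand, 7 exons), had 423, 449 and 457 CPM in FXR-WT and 418, 377 and 434 CPM in Y67F-FXR livers. The ranges overlapped only through Y67F-FXR replicate 3. The log2 fold change was -0.11 (95% interval -0.38 to 0.15, Benjamini-Hochberg adjusted p = 0.754, edgeR quasi-likelihood), so a fall of more than 0.38 or a rise of more than 0.15 lay outside the interval. In the later GENCODE M21 annotation 72.0% of the 100-base windows of its transcripts also belong to 2 overlapping genes that the count files do not list, and how many of its reads came from them was not tested.

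Akr1d1, the 5β-reductase that bends the ring system (chromosome 6, mm9, 37480173 to 37518815, plus strand, 9 exons), had 67.3, 112 and 109 CPM in FXR-WT and 116, 60.0 and 92.0 CPM in Y67F-FXR livers. Its low values were FXR-WT replicate 1 and Y67F-FXR replicate 2, the livers in which short genes stood highest. At 2699 bases Akr1d1 is outside the shortest 20% of genes (up to 1598 bases), and a link to gene length was not tested. The log2 fold change was -0.10, but its 95% interval of -0.73 to 0.53 was the widest of the 8 (Benjamini-Hochberg adjusted p = 0.925, edgeR quasi-likelihood). The sign turned without FXR-WT replicate 2, at 0.022, and without Y67F-FXR replicate 2, at 0.10.

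Cyp2c70, the hydroxylase of muricholic acid formation, had the largest change of the 8. The gene lies on the minus strand of chromosome 19 (mm9, 40227851 to 40261776, 9 exons). Its expression was 171, 133 and 126 CPM in FXR-WT and 15.0, 25.7 and 23.6 CPM in Y67F-FXR livers. Every Y67F-FXR liver was far under the lowest FXR-WT liver. The means were 143 ± 24.2 and 21.4 ± 5.68 CPM (SD, n = 3), 6.70-fold lower with a 95% interval of 4.64 to 9.69. The log2 fold change of -2.74 (standard error 0.230) came with a Benjamini-Hochberg adjusted p of 0.00483 (edgeR quasi-likelihood) and ranked 6 by p among all tested genes. It stayed between -2.91 and -2.54 and past the call in all 6 fits that left out 1 liver, with adjusted p values of at most 0.0355 in the edgeR test.

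**Figure D2:**
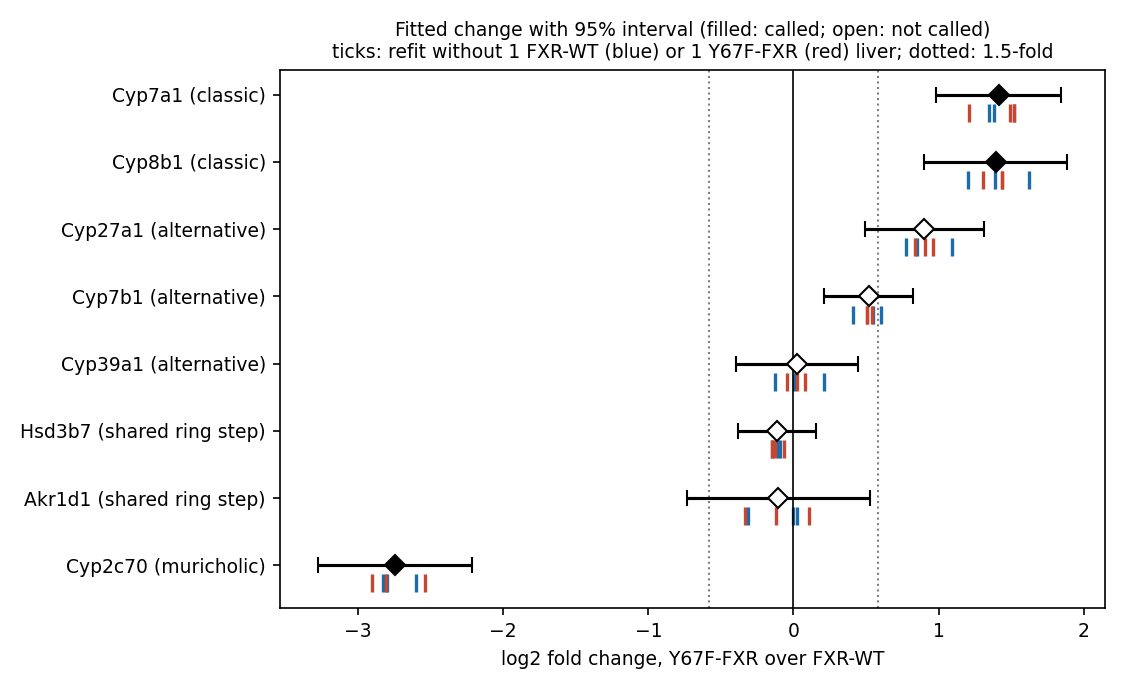
Fitted log2 fold change of Y67F-FXR over FXR-WT for each enzyme gene (diamond, filled where called) with its 95% interval, and the value without each single liver (ticks). Cyp7a1 at 1.41, Cyp8b1 at 1.39 and Cyp2c70 at -2.74 are called, and the intervals of Cyp39a1, Hsd3b7 and Akr1d1 include 0.

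Promoters are shown for Cyp8b1 and Cyp2c70, which were called in opposite directions and both hold the letters CAAAGTCCA, a form of the element bound by HNF4α. RefSeq start sites were found for 5 of the 8 genes in GRCm38.p6, a later build than that of the counts. The windows are the 250 bases upstream of the start, chr9:121916306-121916555 (minus strand) for Cyp8b1 and chr19:40187287-40187536 (minus strand) for Cyp2c70. They read 5′ to 3′ along the gene, with capitals marking matches to the motifs searched on both strands, namely AGGTCA, the nuclear receptor half-site, CAAGGNCA, an extended half-site, CAAAGTCCA, and the inverted repeat of AGGTCA spaced by 1 base, the classical FXR element.
Cyp8b1: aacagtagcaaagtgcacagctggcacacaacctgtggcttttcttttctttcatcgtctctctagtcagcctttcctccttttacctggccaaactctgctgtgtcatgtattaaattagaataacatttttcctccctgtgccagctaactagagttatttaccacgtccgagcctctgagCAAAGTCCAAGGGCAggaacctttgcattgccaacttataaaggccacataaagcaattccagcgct
Cyp2c70: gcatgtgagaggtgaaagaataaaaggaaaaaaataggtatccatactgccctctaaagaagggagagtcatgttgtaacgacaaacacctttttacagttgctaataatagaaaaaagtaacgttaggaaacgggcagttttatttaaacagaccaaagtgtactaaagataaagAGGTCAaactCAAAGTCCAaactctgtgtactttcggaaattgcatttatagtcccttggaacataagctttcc
In Cyp8b1, CAAAGTCCA lay 67 to 59 bases before the start and overlapped the CAAGGNCA match 60 to 53 bases before it. In Cyp2c70, AGGTCA lay 74 to 69 bases and CAAAGTCCA 64 to 56 bases before the start. CAAAGTCCA was found in 0.384% of 32817 mouse promoter windows of this length, CAAGGNCA in 5.53% and AGGTCA in 14.0%. Akr1d1 held 2 AGGTCA matches on the opposite strand, and the windows of Cyp27a1 and Hsd3b7 held none of the motifs. No enzyme window held the inverted repeat, which 0.00609% of all windows held. A match is given as a description of the letters and does not show that a factor binds there.

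Within a group the enzymes also varied from liver to liver. FXR-WT replicate 1 had the lowest CPM of its group for 6 of the 8 genes and the highest for Cyp39a1 and Cyp2c70. In the Y67F-FXR group, replicate 2 was lowest for Cyp7a1, Cyp27a1, Hsd3b7 and Akr1d1 and highest for Cyp8b1, Cyp39a1 and Cyp2c70. Summed over the 8 genes, expression ranged from 1878 to 2544 CPM in FXR-WT and from 3774 to 3786 CPM in Y67F-FXR livers. The near equality of the Y67F-FXR sums holds with the scaling factors, and without them the same sums took 0.354% to 0.386% of reads.

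The enzymes together took 0.227% ± 0.0360 (SD, n = 3) of all counted reads in FXR-WT and 0.369% ± 0.0160 (SD, n = 3) in Y67F-FXR livers, with ranges of 0.188% to 0.260% and 0.354% to 0.386%. Of the difference of 1571 CPM between the group means, Cyp8b1 made up 1021 CPM, Cyp27a1 404 CPM, Cyp7a1 174 CPM and Cyp7b1 135 CPM, while Cyp2c70 changed by -122 CPM. Most of the added reads were therefore those of Cyp8b1 and not of the rate-limiting Cyp7a1. By route, the classic genes went from 0.0751% to 0.188% of reads and the alternative genes from 0.0816% to 0.130%, with no overlap of the groups. The shared steps took 0.0553% and 0.0488% with overlapping ranges, and Cyp2c70 went from 0.0147% to 0.00207%. Precision of the lowest share, that of Cyp2c70 in Y67F-FXR replicate 1, was set by 308 reads, with a Wilson 95% interval of 0.00137% to 0.00171% that covers counting error only.

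**Figure D3:**
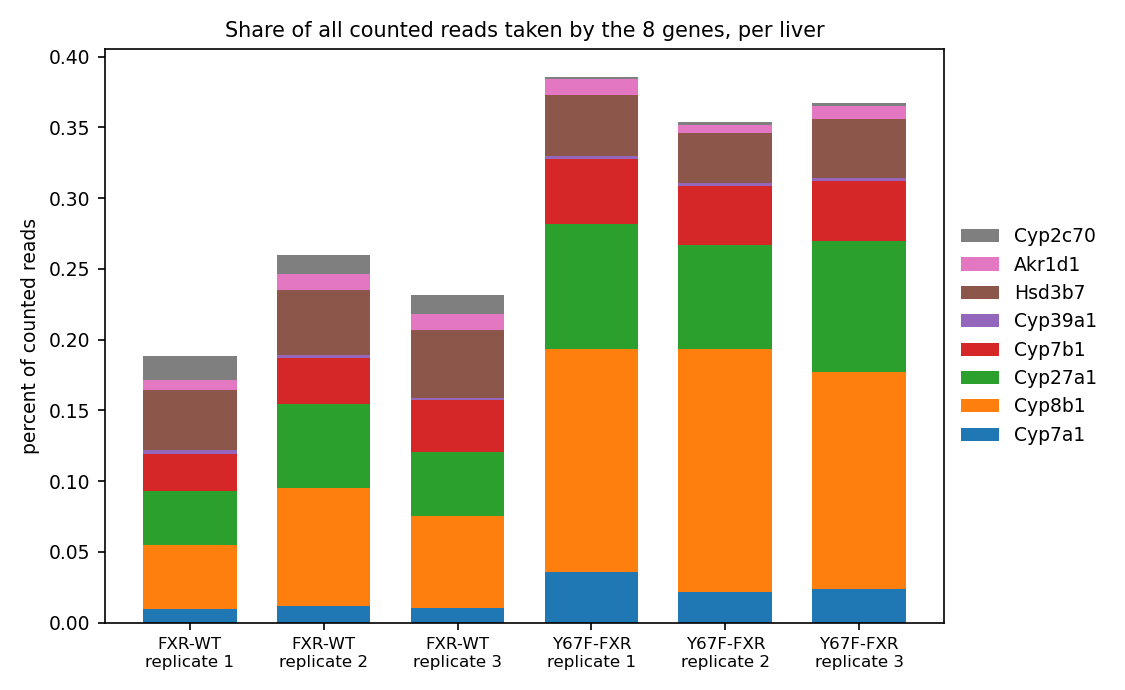
Percent of all counted reads taken by each enzyme gene in every liver, stacked (axis from 0). The totals lie between 0.188% and 0.260% in FXR-WT and between 0.354% and 0.386% in Y67F-FXR livers, and the Cyp8b1 segment grows most.

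To compare levels between genes, counts were also divided by exon length and given as TPM. In FXR-WT livers the order was Cyp8b1 (552 ± 172 TPM), Cyp27a1 (421 ± 102), Hsd3b7 (416 ± 43.7), Cyp7b1 (246 ± 48.4), Cyp2c70 (142 ± 14.9), Akr1d1 (61.3 ± 18.7), Cyp7a1 (42.7 ± 6.28) and Cyp39a1 (10.9 ± 1.85 TPM, each SD with n = 3). Ranges overlapped between Cyp8b1 and Cyp27a1, between Cyp27a1 and Hsd3b7 and between Akr1d1 and Cyp7a1, and not between the other neighbours. In Y67F-FXR livers Cyp7a1 (108 ± 36.0 TPM) rose in rank above Akr1d1 (54.3 ± 21.8 TPM), and Cyp2c70 (19.8 ± 3.77 TPM) had moved below both. The top of the order was the same, with Cyp8b1 at 1351 ± 49.1 TPM, Cyp27a1 at 740 ± 120 TPM, Hsd3b7 at 362 ± 55.6 TPM and Cyp7b1 at 331 ± 35.0 TPM. Among neighbours in this order only Hsd3b7 and Cyp7b1 overlapped. Of the length-scaled level of all 8 enzymes, the classic route made up 31.0% ± 3.97 in FXR-WT and 49.2% ± 3.55 in Y67F-FXR livers (SD, n = 3), and the alternative route 35.8% ± 0.605 and 36.2% ± 2.29. The shared steps went from 25.5% ± 2.48 to 13.9% ± 1.42 and Cyp2c70 from 7.82% ± 2.44 to 0.674% ± 0.173.

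Ratios of counts within a library are free of the scaling factor, and 4 were compared by a two-sided exact permutation test, which cannot give a p below 0.1 with 3 livers against 3. Cyp8b1 to Cyp7a1, both of the classic route, stood at 4.77, 6.81 and 6.26 in FXR-WT and 4.38, 7.86 and 6.34 in Y67F-FXR livers. The groups overlapped throughout, with a log2 difference of 0.034 (p = 0.9 in the exact permutation test, 0.9 adjusted over the 4 ratios) whose sign changed when single livers were left out. Cyp8b1 to Cyp2c70, the hydroxylases of cholic and of muricholic acid formation, went from 2.64, 6.10 and 4.90 to 103, 71.0 and 66.8. Every Y67F-FXR liver was above every FXR-WT liver, by 4.20 on the log2 scale on average (p = 0.1 in the exact permutation test, the smallest it can give, and 0.2 adjusted). Cyp2c70 to Cyp7a1 went from 1.81, 1.12 and 1.28 to 0.0425, 0.111 and 0.0949, lower in 3 of 3 Y67F-FXR livers than in any FXR-WT liver (exact permutation p = 0.1, 0.2 adjusted). Cyp7b1 to Cyp27a1, the consecutive steps of the alternative route, had a log2 difference of -0.39 with overlapping groups (exact permutation p = 0.2, 0.267 adjusted).

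**Figure D4:**
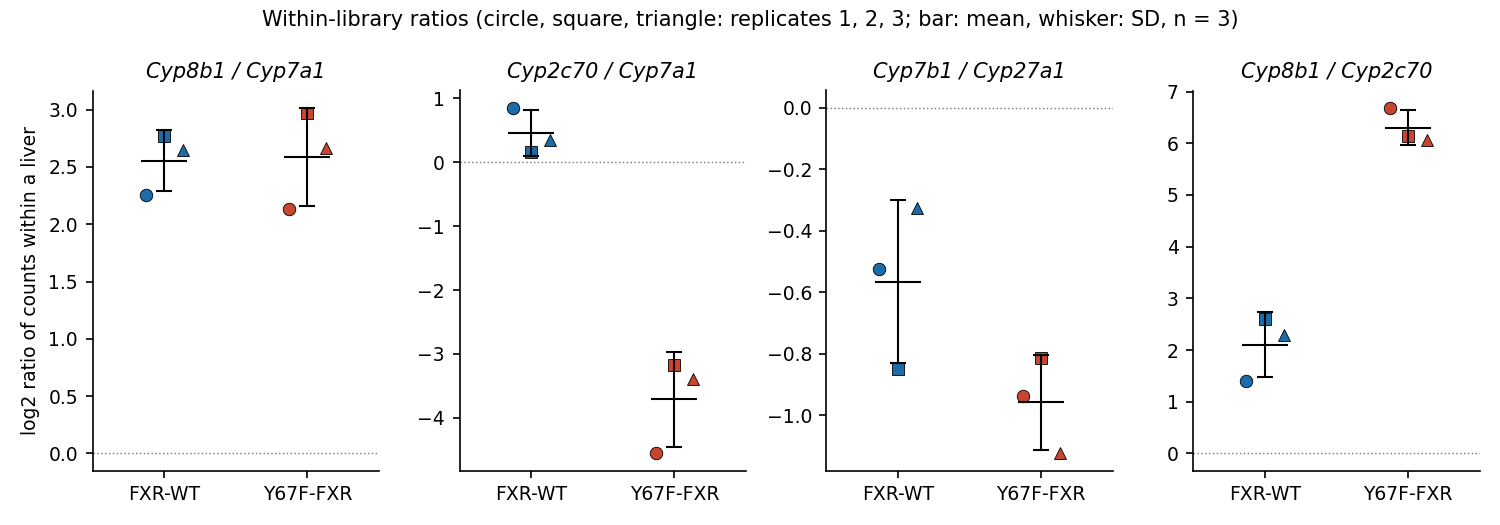
Log2 ratio of the counts of 2 enzyme genes within each liver, with the mean (bar) and SD (whisker) of each group of 3. The Cyp8b1 to Cyp7a1 ratio overlaps between groups (2.56 and 2.59 on average), while Cyp8b1 to Cyp2c70 goes from 2.10 to 6.30.

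Genes around the ring-modifying steps were read from the same fit. Of 9 genes for side-chain shortening and conjugation, 8 were fitted higher, and their median on the log2 scale was 0.33 against 0.012 over all genes. None was called, which was 0 by edgeR and 0 by DESeq2, while 3 had an unadjusted edgeR p under 0.05 (13.4% of all genes tested did), 1 of them, Hsd17b4, at 0.0499. The smallest Benjamini-Hochberg adjusted p values (edgeR quasi-likelihood) were 0.211 for Acot8, a peroxisomal thioesterase whose exons overlap those of Snx21 (log2 fold change 0.49), and 0.289 for Abcd3, a peroxisomal transporter (0.53). Among 6 tested genes for electron transfer and oxysterol formation, 1 was called higher, beside 0.546% of all genes tested. Por, the reductase that passes electrons to the microsomal enzymes CYP7A1, CYP8B1, CYP7B1, CYP39A1 and CYP2C70, had 448, 608 and 468 CPM in FXR-WT and 1015, 1325 and 1151 CPM in Y67F-FXR livers. The groups stood clear of each other, and the log2 fold change was 1.20 (standard error 0.168, Benjamini-Hochberg adjusted p = 0.0243, edgeR quasi-likelihood). Fdx1 and Fdxr, which serve the mitochondrial CYP27A1, had log2 fold changes of -0.11 and 0.15 with overlapping groups. Cyp46a1, the enzyme that makes the substrate of CYP39A1, went from 3.59 to 8.02 CPM, uncalled at an adjusted p of 0.0751 in the edgeR quasi-likelihood test and called by DESeq2.

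Among 11 regulators of bile acid synthesis, 8 were fitted lower and 1 was called lower, beside 0.426% of all genes tested. Kdm1a, encoding the histone demethylase LSD1, fell from 43.7 to 12.9 CPM (log2 fold change -1.76, standard error 0.116, Benjamini-Hochberg adjusted p = 0.00148, edgeR quasi-likelihood). Nr0b2 had 81.9, 63.7 and 59.5 CPM in FXR-WT and 6.41, 25.9 and 7.59 CPM in Y67F-FXR livers. The groups did not overlap, and Y67F-FXR replicate 2 stood apart from the other Y67F-FXR livers. The log2 fold change of -2.37 had a standard error of 0.498 and an adjusted p of 0.0862 in the edgeR quasi-likelihood test. That liver, with the most Nr0b2 in its group, had the lowest Cyp7a1 of the group but the highest Cyp8b1. Short genes also stood highest of the group in that liver, and a link between these genes was not tested. Mafg, a transcriptional repressor, went from 85.1 to 42.5 CPM, with an adjusted p of 0.0608 in the edgeR quasi-likelihood test. DESeq2 called 3 of the 11 lower, Kdm1a, Nr0b2 and Mafg, beside 1.59% of all genes to which it gave an adjusted p.

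Among relatives of the enzymes, the genes that were called were lower. Of 12 tested genes of the Cyp2c family other than Cyp2c70, 5 were fitted higher and 7 lower (median -0.03 on the log2 scale). By edgeR 1 of the 12 was called lower, beside 0.426% of all genes tested. This was Cyp2c67 at -0.78 (Benjamini-Hochberg adjusted p = 0.0379, edgeR quasi-likelihood), and Cyp2c68 had -0.53 and an adjusted p of 0.121 in that edgeR test. Groups did not overlap for 4 of the 12, all of them lower, beside 10.5% of all genes tested that were lower in every Y67F-FXR liver. DESeq2 called 3 lower, Cyp2c67, Cyp2c40 (-1.34 in the edgeR fit) and Cyp2c69 (-1.65), beside 1.59% of all genes. These genes have close copies in the genome, which can make unique counts uncertain, but their shared windows were not measured. For Cyp2c70, 0% of the 100-base windows of its transcripts occurred in another gene. Of the Hsd3b family, whose other members act in steroid metabolism, 3 genes were tested besides Hsd3b7. Hsd3b5 (-4.47) and Hsd3b3 (-1.09) were called lower, beside 0.426% of all genes tested. Their adjusted p values were 0.00313 and 0.0139 in the edgeR quasi-likelihood test. The third, Hsd3b2, had -0.84 and an adjusted p of 0.290 in that edgeR test. A further 2 relatives were at 0 in every liver. Reads on several places were left out here too, and the effect on these counts was not tested. Of 9 tested relatives of Akr1d1, 0 were called by edgeR or DESeq2, while 2 had an unadjusted edgeR p under 0.05 (13.4% of all genes tested did), and the lowest adjusted p was 0.237 for Akr1c6 (-0.40), followed by 0.353 for Akr1c20 (-0.50).

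**Figure D5:**
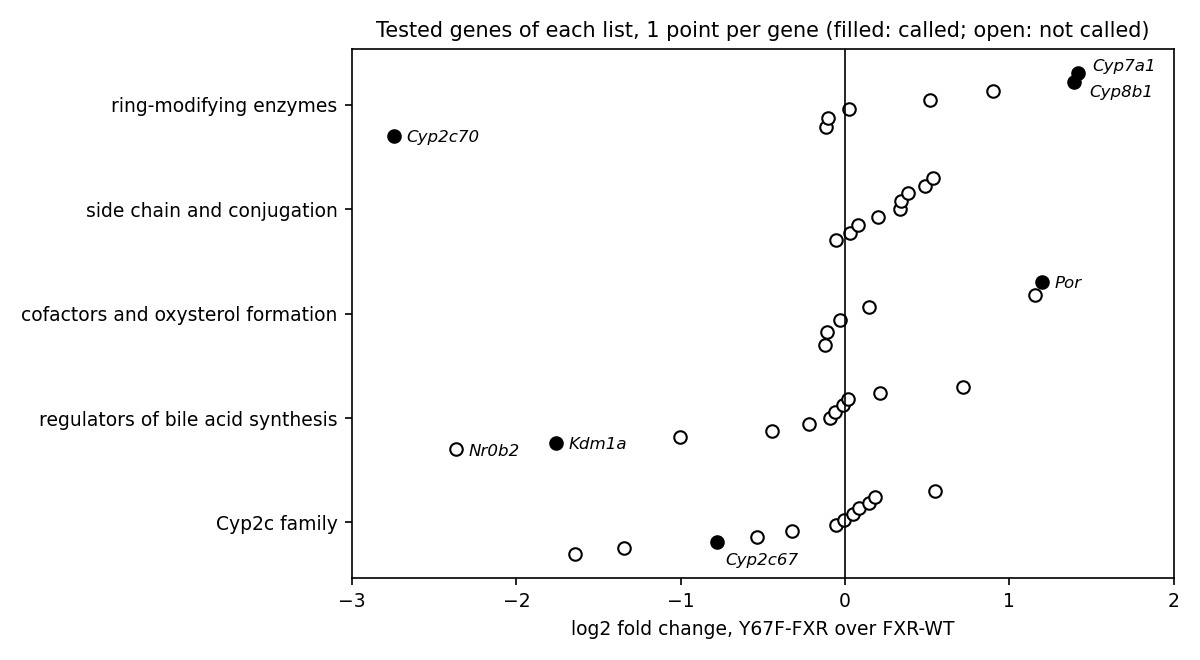
Fitted log2 fold change of Y67F-FXR over FXR-WT for the tested genes of each list, 1 point per gene, filled where called, with called genes and Nr0b2 named. The ring-modifying enzymes run from -2.74 (Cyp2c70) to 1.41 (Cyp7a1), the 9 genes for side-chain shortening and conjugation from -0.06 to 0.53.

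The genes most like Cyp7a1 over the 6 livers were sought by the root mean square difference of centred log2 CPM among the 11513 genes averaging 1 CPM or more. They were Mcart1 (0.0924), Rufy4 (0.120) and Arrdc4 (0.132). Cyp8b1 ranked 35 in this order at 0.292, Cyp27a1 ranked 51 at 0.317 and Cyp7b1 ranked 324 at 0.483. Cyp2c70 was most like Selenbp2 (0.265), Cyp26a1, a retinoic acid hydroxylase (0.281), and Gdf15, a stress-induced hormone (0.378). The measure reflects the difference between the groups as well as the spread within them, and it is given as a description.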

How the data were processed

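Paired-end reads of 100 bases were obtained from 6 livers, 3 per group. What the authors deposited are raw counts per gene. Their processing notes name bcl2fastq 2.17.1.14, Trimmomatic 0.36, FastQC 0.11.5, STAR 2.5.3a and edgeR, and per the file headers featureCounts 1.4.6-p4 assigned reads to the exons of UCSC genes (mm9). Counting ignored strand and took the reads of a pair singly, with reads on several places or genes left out, which lowers the counts of close paralogs. A deposited table of the authors' own comparison (log2 fold changes and p-values) was not used.

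In R 4.3.3, edgeR 4.0.16 was used throughout (filterByExpr, TMM factors, glmQLFit, glmQLFTest, two-sided, Benjamini-Hochberg adjustment over 12453 genes). Standard errors come from the F statistic. Depth ran from 19551113 to 22053320 counted reads a library (common biological coefficient of variation 0.194). The labels number the samples within a group but do not say how the animals were housed or processed, so p-values measure the spread between these samples. Log2 CPM used a prior count of 2, and ratios added 0.5 to each count. TPM values were computed here. Promoters and motifs came from RefSeq, and windows shared between transcripts from GENCODE M21, with Python 3.11.15. Alternatives were other scaling factors, DESeq2 1.42.0, the likelihood ratio test, other filters, a replicate block, gene length offsets (loess, span 0.3), no fold minimum and each liver left out.

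Named were the 8 enzymes, Nr1h4, Nr0b2, the 2 genes with the smallest adjusted p of each list and the 3 genes most like Cyp7a1 and Cyp2c70. Fdx1, Fdxr, Hsd17b4, Slco1a1, Cyp2c40, Cyp2c69, Hsd3b2 and the globin genes were named outside this rule, after their values were seen, and Snx21, Plbd2, Spryd4 and Pitx3 only as overlapping genes. The enzymes and lists were chosen with earlier results of these data known.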

Additional observations from a re-analysis of the deposited data

How the results depend on the processing

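Among the fits on all livers, Cyp7a1, Cyp8b1 and Cyp2c70 lost their calls only under the replicate block, where their log2 fold changes were 1.396, 1.43 and -2.76 (adjusted p = 0.120, 0.0888 and 0.0515, edgeR quasi-likelihood test). The block left 0 of the enzymes called higher and 0 called lower, and 2 and 6 of all genes. Same-numbered livers correlated at -0.52, -0.08 and 0.12 in their deviations from the group means, so the numbers were not taken to pair the mice. Cyp27a1 gained a call with DESeq2 (0.91), the likelihood ratio test (0.90), no filter (0.91) and gene length offsets (0.91). With library totals Cyp39a1 turned to -0.045, and 52 genes were called higher and 68 lower, against 68 and 53 with TMM factors. Genes called higher and lower numbered 214 and 206 with DESeq2, 221 and 226 with the likelihood ratio test and 121 each with length offsets, and 86 and 81 without a filter. Leaving out the 10 most abundant genes gave the enzymes 0.281% and 0.457% of reads in FXR-WT and Y67F-FXR.

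Without 1 liver in turn, 2 to 35 genes were called higher and 7 to 33 lower, and 0 to 1 enzymes higher. The fewest calls came without FXR-WT replicate 3, and without Y67F-FXR replicate 3 there were 9 higher and 17 lower. The log2 fold changes ranged from 1.21 to 1.52 for Cyp7a1, from 1.20 to 1.62 for Cyp8b1, from -0.34 to 0.10 for Akr1d1 and from -0.13 to 0.21 for Cyp39a1, and the log2 difference of Cyp8b1 to Cyp7a1 from -0.16 to 0.26. The cause of these shifts was not tested.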

Other observations

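Hepatocytes differ along the liver lobule, from the portal to the central vein, and Cyp7a1 and Cyp8b1 are among the genes expressed unevenly along it. Of 7 pericentral genes 6 were fitted higher and 0 were called, with a median log2 fold change of 0.27, led by Lhpp (0.63, Benjamini-Hochberg adjusted p = 0.136, edgeR quasi-likelihood) and Oat (0.72, 0.162 in the same edgeR test). Of 5 periportal genes 5 were fitted higher and 0 were called, with a median of 0.28, led by Sds (1.49, adjusted p = 0.106, edgeR), whose exons overlap those of Plbd2, and Gls2 (0.32, adjusted p = 0.466, edgeR), whose exons overlap those of Spryd4. In these lists 2 pericentral genes and 1 periportal gene had an unadjusted edgeR p under 0.05, beside 13.4% of all genes tested, and DESeq2 called Oat, Lhpp and Sds higher, beside 1.66% of all genes.

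Cyp7b1 and Hsd3b5 are expressed more in male than in female mouse liver, and the animals were all male. Of 8 male-biased genes 5 were fitted higher and 3 lower. Hsd3b5 fell from 109 to 4.92 CPM and was called lower, beside 0.426% of all genes tested. Elovl3, an elongase of very long fatty acids whose exons overlap those of Pitx3, rose from 34.5 to 103 CPM (log2 fold change 1.58, Benjamini-Hochberg adjusted p = 0.0336, edgeR quasi-likelihood). It was called higher, beside 0.546% of all genes tested. Every Y67F-FXR liver was above every FXR-WT liver for 3 of the 8 and below for 1, beside 10.2% and 10.5% of all genes tested. DESeq2 called 2 higher, Elovl3 and Slco1a1 (0.86 in the edgeR fit, adjusted p = 0.170), and Hsd3b5 lower, beside 1.66% and 1.59% of all genes. The median of the list was 0.16.

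Markers of other liver cells gave no call by edgeR. Summed expression was 46.0 to 71.1 CPM in FXR-WT and 54.1 to 60.6 CPM in Y67F-FXR livers for 5 cholangiocyte markers, 144 to 172 and 146 to 157 CPM for 5 endothelial markers, and 100.4 to 155 and 81.7 to 201 CPM for 6 Kupffer cell and leukocyte markers. By edgeR's unadjusted p under 0.05, 0 cholangiocyte, 1 endothelial, and 2 Kupffer cell and leukocyte markers passed, beside 13.4% of all genes tested, and DESeq2 called the 2 of the latter lower, S100a8 and S100a9, beside 1.59% of all genes. In the edgeR fit S100a8 was at -2.73 (1.03 against 0.151 CPM) and S100a9 at -1.95 (2.75 against 0.716 CPM) on the log2 scale. Each was lower in every Y67F-FXR liver, as 10.5% of all genes tested were. The smallest adjusted p values of the edgeR quasi-likelihood test were 0.420 for Krt19 and 0.656 for Krt7 among cholangiocyte markers, and 0.211 for Lyve1 and 0.769 for Stab2 among endothelial markers. They were 0.0529 for S100a8 and 0.106 for S100a9, 0.0540 for Lrat and 0.285 for Col1a1 among stellate cell markers, and 0.184 for Fgb and 0.649 for Tat among hepatocyte markers, in the same edgeR test. Of 5 erythrocyte markers, Hbb-b1, Hbb-b2, Hba-a1 and Hba-a2 were at 0 in all 6 livers, and Alas2 had 80.1 to 114 CPM. Counting left out reads on several places or genes, so a count of 0 does not show that globin RNA was absent.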
